A study of Homo sapiens with 2 samples.

Results

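The genes described here are 34 genes of the cellular response to low oxygen, namely the hypoxia-inducible factors (HIF), the proteins that restrain them and a set of their well-known targets. A gene was included when a transcript cluster (the group of probes that the array reads as 1 gene) carried its symbol and no other. By this rule 32 of the 34 were measured, of 18417 genes in all. EGLN2 was left out because its cluster also carries the name of the read-through gene RAB4B-EGLN2, and no cluster of the annotation table names CA9. Each of the 32 had a single cluster, and none was removed for being dim.

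The values come from 2 Affymetrix Human Gene 1.0 ST arrays of ACHN, an established cell line of human kidney carcinoma, described in the labels as clear cell. One array held cDNA of cells transfected with a short hairpin RNA (shRNA) against Kindlin-2 and the other cDNA of cells transfected with a control shRNA. Both cultures grew in minimum essential medium with 10% serum and 400 µg/ml of G418, a drug that selects transfected cells. The labels do not say whether either culture was a single clone or a pool, name no hairpin sequence and give no oxygen level. Each group is 1 array (n = 1), so no difference below has a replicate check, a p-value or an error, and every statement concerns these 2 arrays. Whether fewer cells express a gene or each cell holds less of its RNA cannot be told apart in such bulk RNA.

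HIF is a pair of proteins, an oxygen-regulated alpha subunit (HIF1A or EPAS1, the latter also called HIF-2-alpha) and the stable partner ARNT. When oxygen is present, the prolyl hydroxylases EGLN1, EGLN2 and EGLN3 mark the alpha subunit, VHL recognises the mark and has the protein destroyed, and HIF1AN blocks what remains from activating genes. In clear cell renal carcinoma this brake is commonly lost through VHL, which is why HIF targets are much studied in this tumour. ACHN is not always classed as clear cell, and neither its class nor the function of its VHL protein was assessed here. Because this control acts mainly on the alpha proteins, transcript levels of the subunits do not report HIF activity, and protein was not measured here.

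FERMT2, the gene that encodes Kindlin-2, stood at 8.26 after knockdown and at 9.37 in the control (log2 scale, as for all levels below), a difference of -1.11 (knockdown minus control, as for all differences below), in the direction of the label. The median of all 33297 clusters was 6.53 and 6.51. Of 12 renal epithelial markers measured, 9 were at or above the table's median of 6.52 on each array. PAX8, a transcription factor of kidney lineage, stood at 11.29 and 11.43, and the keratin KRT8 at 12.11 and 12.65, a difference of -0.54. The proximal tubule receptors CUBN (4.43 and 4.57) and LRP2 (4.59 and 4.70) lay below that median on both. Of 8 endothelial markers 1 reached the median on each array, of 7 leukocyte markers 2 and of 8 fibroblast markers 3. Of the fibroblast markers 5 were above 0 and 3 below, with a median difference of 0.03. PDGFRB (6.31 and 7.08) was 1.71-fold lower in the knockdown, and THY1, the brightest of them at 11.06 and 10.88, was slightly higher.

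HIF binds DNA at a core of 5 bases, ACGTG or GCGTG. The stretch of 250 bases upstream of the transcription start was searched for both on both strands, in the RefSeq promoter table of GRCh38.p14. A gene could have several listed starts, and the palindrome CACGTG counts once on each strand. Of the 32 measured genes 27 had an entry, and 21 of these held a core in at least 1 window. Over all measured genes with an entry, 57.7% did, as did 43.2% of all windows. The upstream stretches are shown for 5 of the 6 genes that differed most (STC1 is the other), because these carry the largest differences described below. Cores are in capitals, and a core on the opposite strand appears as CACGT or CACGC. Where a gene has several starts, the window with the most cores is given.
PDK1: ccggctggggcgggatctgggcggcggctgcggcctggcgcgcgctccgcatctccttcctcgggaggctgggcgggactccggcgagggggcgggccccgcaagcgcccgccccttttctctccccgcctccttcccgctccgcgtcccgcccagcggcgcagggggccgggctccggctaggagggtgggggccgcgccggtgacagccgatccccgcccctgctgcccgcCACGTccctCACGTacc
ANGPTL4: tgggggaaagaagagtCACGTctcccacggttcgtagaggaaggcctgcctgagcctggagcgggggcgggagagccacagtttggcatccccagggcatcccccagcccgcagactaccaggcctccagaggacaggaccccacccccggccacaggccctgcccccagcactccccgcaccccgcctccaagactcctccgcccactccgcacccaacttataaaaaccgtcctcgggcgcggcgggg
CA12: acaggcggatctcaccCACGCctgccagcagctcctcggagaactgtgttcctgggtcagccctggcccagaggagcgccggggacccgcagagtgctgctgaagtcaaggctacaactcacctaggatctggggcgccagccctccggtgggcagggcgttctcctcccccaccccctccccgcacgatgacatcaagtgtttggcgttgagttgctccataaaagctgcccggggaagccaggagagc
PLOD1: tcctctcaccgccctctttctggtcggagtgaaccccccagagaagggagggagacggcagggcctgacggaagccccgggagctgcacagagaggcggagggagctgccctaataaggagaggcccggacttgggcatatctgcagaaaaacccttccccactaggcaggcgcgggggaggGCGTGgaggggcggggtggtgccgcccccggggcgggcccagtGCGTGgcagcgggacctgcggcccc
PDK2: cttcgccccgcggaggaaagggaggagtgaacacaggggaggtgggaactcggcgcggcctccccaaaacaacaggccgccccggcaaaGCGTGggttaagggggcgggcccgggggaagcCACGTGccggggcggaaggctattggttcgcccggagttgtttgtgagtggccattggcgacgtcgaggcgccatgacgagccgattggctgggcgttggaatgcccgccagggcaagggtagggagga
These stretches lie at chr2:172555840-172556089, plus strand (PDK1), chr19:8363905-8364154, plus strand (ANGPTL4), chr15:63381847-63382096, minus strand (CA12), chr1:11934467-11934716, plus strand (PLOD1) and chr17:50095101-50095350, plus strand (PDK2). In PDK1, the cores begin 17 and 8 bases before the start, and its other listed window holds none. In ANGPTL4 and CA12 the only core begins 234 bases before the start. PLOD1 has cores beginning 68 and 25 bases before it. PDK2, the member that was lowest in the knockdown relative to control, also has cores, in 1 of its 3 windows. A match is a string of letters and does not show that HIF binds there.

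As a group, the 32 genes were more often higher than lower in the knockdown array. Their median difference was 0.23, against -0.01 over all 18417 genes, and 21 of the 32 were above 0, against 46.7% of all genes. At least 1.5-fold higher were 5 members (STC1, PDK1, ANGPTL4, CA12 and PLOD1), where 3.77% of all genes passed that fold in that direction. At least 1.5-fold lower was 1 member, PDK2, where 3.81% of all genes did. Bright genes passed more often: among the 11470 genes whose mean reached the table's median, 4.86% were 1.5-fold higher and 4.93% lower, and all 6 of these members are among the 28 that reached it. At least 2-fold higher were STC1 and PDK1, against 1.01% of all genes, and no member was at least 2-fold lower, against 0.896%. Beside this, 9 of the 12 renal epithelial markers were below 0, with a median of -0.27. The kidney cadherin CDH16 was 1.78-fold and the lineage factor PAX2 1.58-fold lower, and the cadherin CDH6 was 1.88-fold higher. The part of this in the members' shift was not tested. The shift was uneven among the members. Of the HIF subunits, HIF1A was above 0 and EPAS1 and ARNT below it, and 3 of the 4 measured brakes were below 0, whereas the secreted factors and the enzymes of collagen and disulphide formation lay mostly above it.

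**Figure D1:**
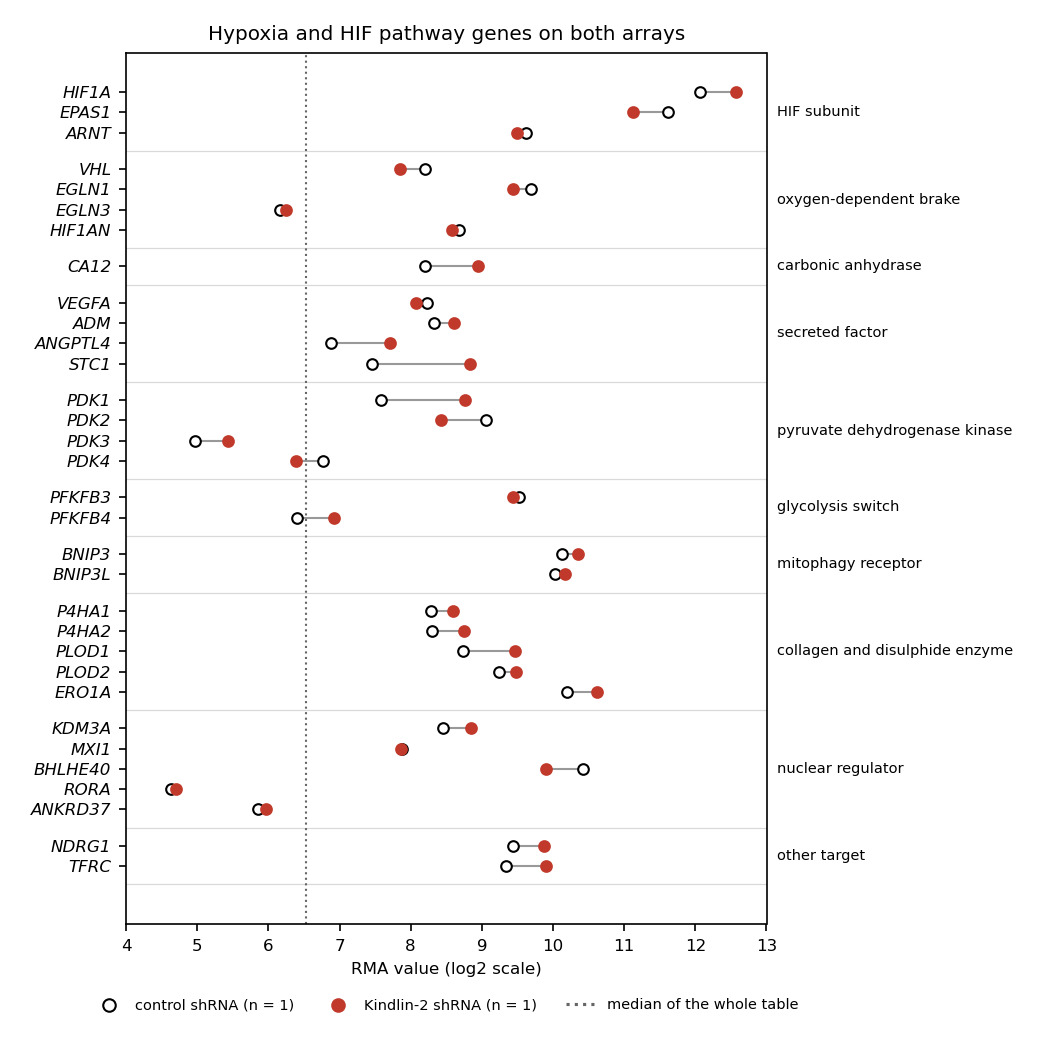
RMA values (log2 scale) of the 32 genes on the control array (open circles) and the Kindlin-2 shRNA array (filled circles), 1 array each, grouped by role, with the table's median dotted. STC1 and PDK1 have the widest gaps, and EGLN3, PDK3, RORA and ANKRD37 lie below the median on both arrays.

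The alpha subunits differed in opposite directions by about the same amount. HIF1A was at 12.57 in the knockdown and 12.07 in the control, a difference of 0.51 or 1.42-fold higher. EPAS1 had 11.12 and 11.62, a difference of -0.50 or 1.41-fold lower. The gap between both differences was 1.00 on the log2 scale, while neither passed 1.5-fold alone. A larger difference than that of HIF1A was found for 940 of the 18417 genes, and a lower one than that of EPAS1 for 1014. The partner ARNT, shared by both alpha subunits, was at 9.49 and 9.62 and differed by -0.13.

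Of the 4 measured brakes, 3 were below 0 and none passed 1.5-fold. Of all 18417 genes, 9581 were below 0, while 3.77% were at least 1.5-fold higher and 3.81% lower. VHL, the recognition subunit of the ubiquitin ligase, was at 7.85 in the knockdown and 8.20 in the control, a difference of -0.35. EGLN1, generally the main oxygen sensor of the 3 hydroxylases, was at 9.44 and 9.69, a difference of -0.24. HIF1AN, the asparaginyl hydroxylase that blocks the activation domain, was at 8.58 and 8.68, a difference of -0.10, which became 0.01 once the median of the 50 nearest genes was subtracted. EGLN3, a hydroxylase gene that is itself a HIF target, was dim at 6.25 and 6.16 and differed by 0.09.

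Other parts of this machinery had no common direction. Of 18 measured genes of a list of further HIF subunits, cofactors and ligase components, 10 were above 0 and 8 below, with a median of 0.01 (0.09 with the 50 nearest genes subtracted). ARNT2, a paralogue of ARNT, was the only one past 1.5-fold, at 7.64 in the knockdown and 8.33 in the control, a difference of -0.69. Of all genes, 3.77% passed that fold higher and 3.81% lower.

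Among the secreted factors, STC1 had the largest difference of all 32 genes. This glycoprotein hormone, stanniocalcin-1, was at 8.83 in the knockdown and 7.45 in the control, 2.59-fold higher, with 66 genes showing a larger difference. ANGPTL4, an inhibitor of lipoprotein lipase, was at 7.71 and 6.89, 1.77-fold higher. The vasodilator peptide gene ADM (adrenomedullin) was at 8.61 and 8.33, a difference of 0.28. VEGFA, the angiogenic growth factor and a textbook HIF target, went the other way, at 8.07 and 8.23, a difference of -0.16. With the 50 nearest genes subtracted it was -0.04. The genes of this role thus ranged from -0.16 to 1.38, with 3 of the 4 above 0. The differences of VEGFA and ADM were both smaller in size than the standard deviation over all genes, 0.35. That value describes the spread among genes and does not measure the variation between cultures.

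The 4 pyruvate dehydrogenase kinases, which switch off the entry of pyruvate into the citric acid cycle, differed in both directions. PDK1, the isoform best known as a HIF-1 target, was at 8.77 in the knockdown and 7.58 in the control, a difference of 1.19 or 2.28-fold higher, and 101 genes had a larger one. PDK2, an isoform found in most tissues, was at 8.42 and 9.06, a difference of -0.64 or 1.55-fold lower. The differences of PDK1 and PDK2 were therefore 1.82 apart on the log2 scale, the widest gap between paralogues compared here.

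PDK3 was dim on both arrays, at 5.44 and 4.96, with a difference of 0.48. PDK4, an isoform known to respond to fasting and fatty acids, was at 6.39 and 6.77, a difference of -0.38. Chromosome 7, where PDK4 lies, had a median of -0.13 over its 833 genes, and the difference of PDK4 was -0.25 with the chromosome's median subtracted. Of 8 measured genes for pyruvate dehydrogenase subunits, its phosphatases and the mitochondrial pyruvate carrier, 6 were below 0, with a median of -0.13. Of all 18417 genes, 9581 were below 0. None of the 8 passed 1.5-fold, against 3.77% of all genes higher and 3.81% lower.

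The bifunctional enzymes PFKFB3 and PFKFB4 set the level of fructose 2,6-bisphosphate, an activator of glycolysis. PFKFB3 was at 9.44 in the knockdown and 9.52 in the control, a difference of -0.08. PFKFB4 was at 6.92 and 6.40, a difference of 0.52, and its control value lay below the table's median. That difference became 0.63, past 1.5-fold, with the 50 nearest genes subtracted.

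In the wider list of glucose transport and glycolysis, 13 of 17 measured genes were above 0, against 46.7% of all genes. The median of the list was 0.14. The glucose transporter SLC2A1 was at 10.28 in the knockdown and 9.30 in the control, 1.98-fold higher, and the hexokinase HK2 at 8.62 and 7.81, 1.75-fold higher. These 2 alone were at least 1.5-fold higher, against 3.77% of all genes, and none of the list was 1.5-fold lower, against 3.81%. Their paralogues SLC2A3 (0.17) and HK1 (0.14) differed by less.

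The enzymes that modify collagen and form disulphides were all above 0 (5 of 5), with a median of 0.42. PLOD1, a lysyl hydroxylase that prepares collagen for crosslinking, was at 9.47 in the knockdown and 8.74 in the control, 1.65-fold higher. Its paralogue PLOD2 was at 9.48 and 9.23, a difference of 0.24. The catalytic subunits of collagen prolyl 4-hydroxylase were close to each other, P4HA2 at 8.75 and 8.29 (0.46) and P4HA1 at 8.59 and 8.28 (0.31). ERO1A, the oxidase that supplies disulphide bonds in the endoplasmic reticulum, was at 10.62 and 10.20, a difference of 0.42. Of 10 other enzymes and partners of collagen hydroxylation, 6 were above 0, against 46.7% of all genes. None of the 10 passed 1.5-fold, against 3.77% of all genes higher and 3.81% lower, and their median was 0.11. That median was 0.18 with each autosome's median subtracted and 0.24 with the 50 nearest genes subtracted.

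CA12, a carbonic anhydrase of the cell surface that helps export acid, was at 8.94 in the knockdown and 8.20 in the control, 1.67-fold higher. The mitophagy receptors BNIP3 (10.35 and 10.13) and BNIP3L (10.17 and 10.03), which tag mitochondria for removal, differed by 0.22 and 0.14. NDRG1, a stress-responsive gene that is strongly induced by hypoxia in many cells, was at 9.87 and 9.43, a difference of 0.44. TFRC, the transferrin receptor that brings iron into the cell, was at 9.91 and 9.34, a difference of 0.57, just under 1.5-fold.

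The nuclear regulators showed no common direction. BHLHE40, a circadian repressor also called DEC1, was at 9.90 in the knockdown and 10.42 in the control, a difference of -0.52. KDM3A, a histone H3 lysine 9 demethylase, was at 8.85 and 8.46, a difference of 0.39. MXI1, a repressor that competes with MYC for its partner MAX, was at 7.86 and 7.89, a difference of -0.02 that took the opposite sign after a loess correction (0.01). The nuclear receptor gene RORA (4.70 and 4.63) and ANKRD37 (5.97 and 5.85) were dim on both arrays and differed by 0.07 and 0.12.

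**Figure D2:**
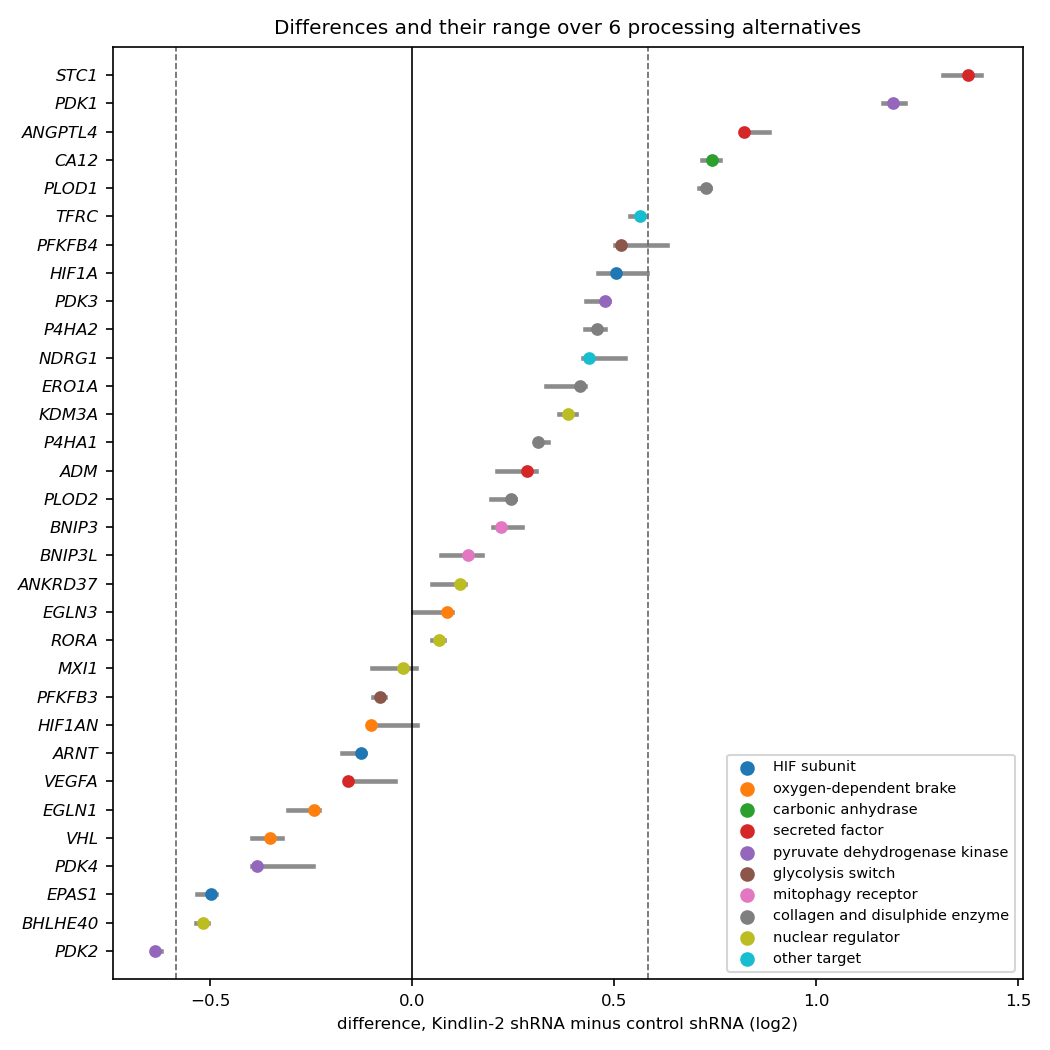
Difference between both arrays on the log2 scale (points, coloured by role) and its range over 6 alternatives of scaling, cluster choice and chromosome correction (grey bars), with the 1.5-fold lines dashed. STC1, PDK1, ANGPTL4, CA12 and PLOD1 lie beyond 1.5-fold on the right and PDK2 on the left over their whole range, and the bars of HIF1AN and MXI1 cross 0.

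Set among all genes, the members spanned the range of brightness, with 26 at or above the table's median on both arrays and 4 below it on both. The genes past 1.5-fold all lay above the median on both arrays. That median is taken over all 33297 clusters and is not a detection limit. Of 7 leukocyte markers 2 also reached it, among them TYROBP at 7.53 in the knockdown and 7.62 in the control. The control values of ANGPTL4 (6.89), STC1 (7.45) and PDK1 (7.58) were no higher than that of TYROBP. No member lies on chromosome 9, 12 or 20, whose genes had medians of -0.19, -0.14 and 0.15. PDK4 lies on chromosome 7, whose median of -0.13 was close to that of chromosome 12.

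**Figure D3:**
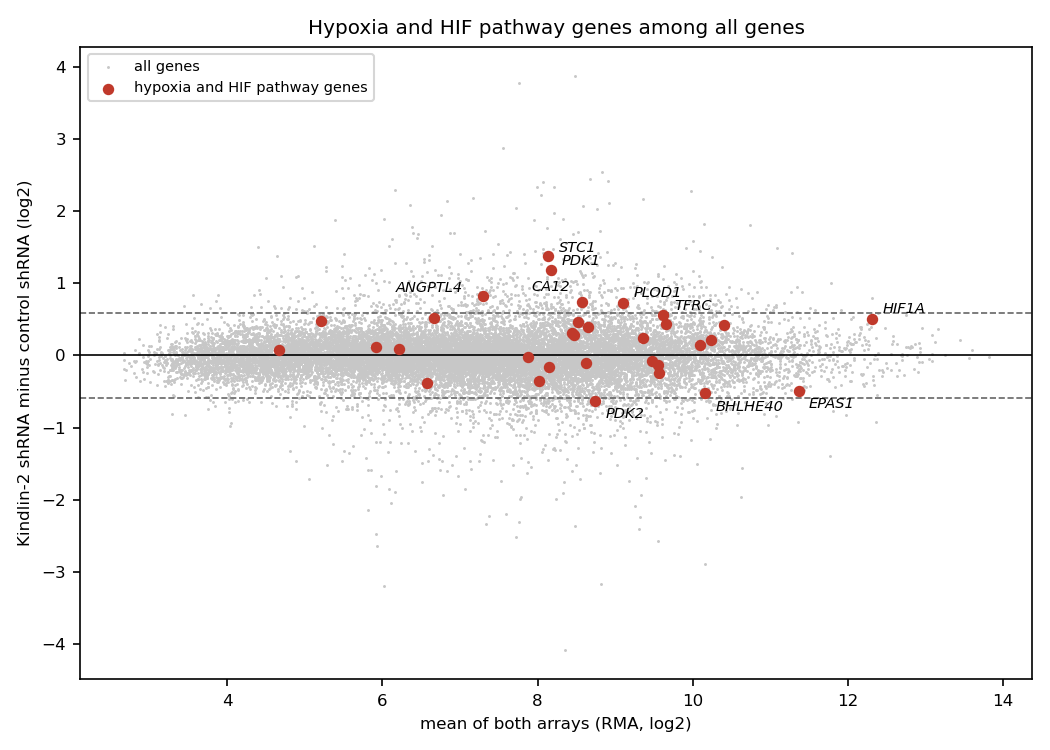
Difference (log2, vertical) against the mean of both arrays (log2, horizontal) for all 18417 genes (grey) and the 32 hypoxia and HIF pathway genes (red), with the 1.5-fold lines dashed. STC1 at 1.38 and PDK1 at 1.19 stand highest among the members, and HIF1A at 0.51 and EPAS1 at -0.50 lie on opposite sides of 0 among bright genes.

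The upward shift of the members was not shared by a further list of hypoxia targets. That list leaves out the genes of glucose transport and glycolysis, where 13 of 17 were above 0 with a median of 0.14. Of the 33 further targets that were measured, 16 were above 0 and 17 below, with a median of -0.03. Of these 33, 6 lay below the table's median on both arrays. Past 1.5-fold there were 3 higher and 4 lower genes, against 3.77% and 3.81% of all genes. The list thus spread in both directions. STC2, the paralogue of STC1, had the largest difference of the list, at 8.75 in the knockdown and 6.70 in the control, 4.13-fold higher. The growth factor TGFA was at 10.35 and 9.38, 1.95-fold higher, and cyclin D1 (CCND1) at 11.50 and 10.89, 1.52-fold higher.

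In the other direction, the histone demethylase KDM4C was at 7.39 in the knockdown and 8.22 in the control, 1.78-fold lower. KDM4C lies on chromosome 9, and its difference of -0.83 was -0.61 with the 50 nearest genes subtracted. DDIT4, a stress-induced inhibitor of mTORC1, was at 8.93 and 9.75, 1.77-fold lower. Endothelin-1 (EDN1) was at 5.24 and 5.98, 1.68-fold lower, both values being dim. The list of members and that of further targets were both written with results of these arrays known. The difference between their medians was not tested.

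**Figure D4:**
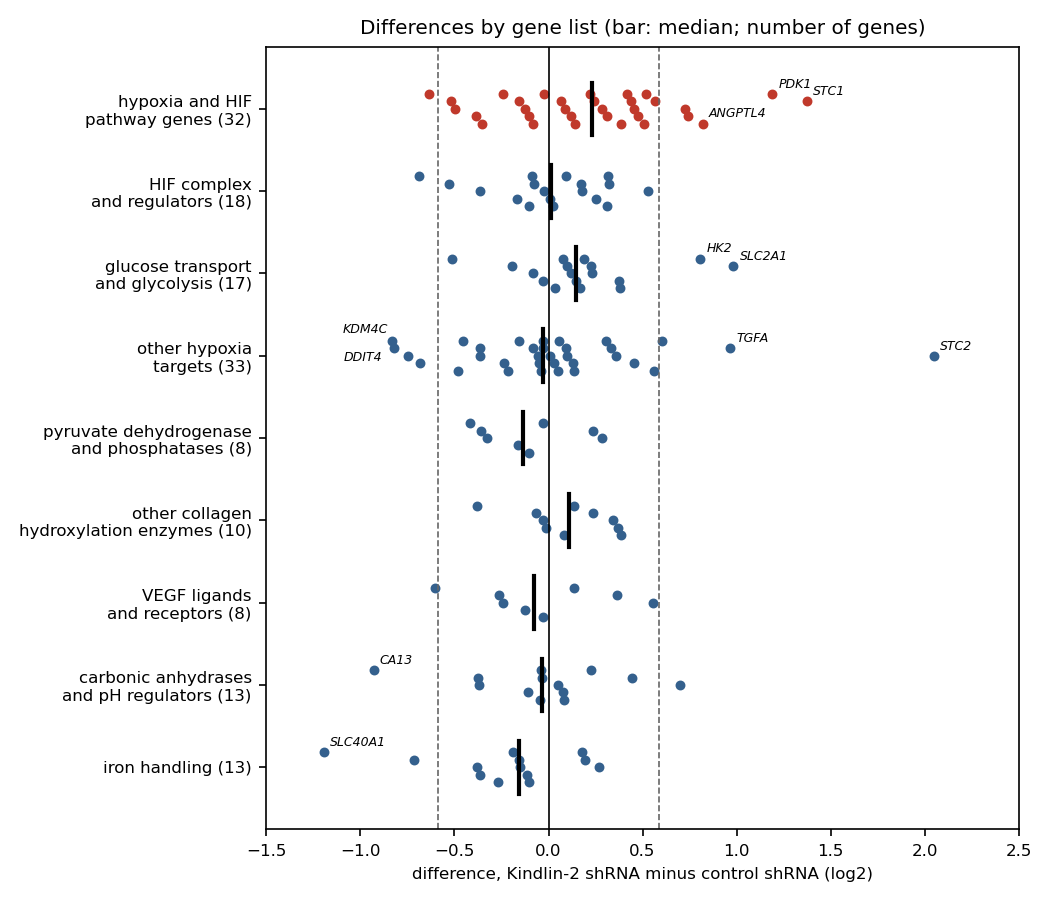
Differences (log2) of the 32 hypoxia and HIF pathway genes (red) and of 8 related gene lists (blue), 1 point per gene, with the list median as a black bar and the 1.5-fold lines dashed. The median is 0.23 for the members, 0.14 for glucose transport and glycolysis and -0.03 for other hypoxia targets.

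The presence of a core upstream went with a higher median among the members and not among all genes. The 21 members with a core had a median difference of 0.31 and ranged from -0.64 to 1.19, and the 6 without one had a median of -0.02 and ranged from -0.38 to 0.46. The ranges overlap, and 6 genes give a median little weight. The genes without a core include ARNT, EGLN3 and HIF1AN, which are HIF subunits or brakes, whereas HIF1A, EPAS1 and EGLN1 are among those with one. STC1, VHL, VEGFA, BNIP3L and NDRG1 had no entry and are in neither group. Whether a core bears on the difference was not tested. Over all measured genes with an entry, the medians with and without a core were both -0.01.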

How the data were processed

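Per the submitters' processing notes, the authors' software was Affymetrix Expression Console 1.4.1 and their method RMA. RMA corrects background, aligns the arrays and summarises the probes of each cluster. The deposited values run from 2.13 to 14.04 and were taken as log2. The sources used here do not give the library file, and the table holds no detection calls.

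Symbols came from GEO's platform annotation, updated by Entrez ID to RefSeq (GRCh38.p14). Of 33297 clusters, 19460 had 1 symbol (19429 matched), 1754 several and 12083 none. The brightest cluster stood for each gene, without a filter. Differences and medians were computed in Python 3.11.15. The differences per gene and the set of genes at least 1.5-fold higher were tested on simulated data, and the medians were not. With 1 array per group no test was possible, and the number of arrays limits the precision.

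The members and lists were chosen with earlier results of these data known. All members are named, and from each pathway list up to 3 genes per direction past 1.5-fold; SLC2A3, HK1 and the cell type markers named were chosen after their values were seen. Alternatives covered scaling (median, loess, quantile), clusters averaged, chromosome or neighbour medians subtracted, thresholds and filters on dim genes.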

Additional observations from a re-analysis of the deposited data

How the results depend on the processing

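With the threshold at 2-fold the counts of members were 2 higher and 0 lower, and at 3-fold 0 and 0. Under the 6 alternatives of scaling, cluster choice and chromosome correction, the counts stayed between 5 and 6 higher and at 1 lower. Not all of these could change a member. Averaging clusters could change none, as each member has 1 cluster, and neither chromosome correction changed PDK3, on chromosome X. Subtracting the autosome's median left members on chromosomes 10, 14 and 17 unchanged, as that median was 0. The members' median stayed between 0.20 and 0.26 under these, the filters on dim genes and the mean. Of the 32 members 30 kept their sign under all 6, and HIF1AN and MXI1 did not. No paired analysis was possible because each group has 1 sample. The background correction was not varied, since the analysis began from summarised values. Without replicates, differences as large as most described here cannot be set against the variation between cultures of one kind.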

Other observations

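Genes of iron handling other than TFRC were mostly lower in the knockdown array. Of 13 measured genes 10 were below 0, against 9581 of all 18417 genes, and the median of the 13 was -0.16. That median was -0.13 with each autosome's median subtracted and -0.13 with the 50 nearest genes subtracted. Of the genes below 0, ACO1 lies on chromosome 9, SLC11A2 and PCBP2 on 12 and TFR2 on 7, whose medians were also below 0. TF and TFR2 were dim on both arrays. Of the 13, 2 were at least 1.5-fold lower, against 3.81% of all genes. SLC40A1, which encodes ferroportin, the exporter of iron from the cell, was at 8.12 in the knockdown and 9.32 in the control, 2.29-fold lower. Its difference of -1.20 and that of 0.57 for the importer TFRC were 1.76 apart on the log2 scale. HFE, a regulator of hepcidin signalling that also binds the transferrin receptor, was at 6.50 and 7.22, 1.64-fold lower. Its knockdown value lay just below the table's median of 6.52.

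Relatives of CA12 and VEGFA gave a mixed picture. The cytosolic carbonic anhydrase CA13 was at 7.33 in the knockdown and 8.26 in the control, 1.91-fold lower, whereas the bicarbonate transporter SLC4A7 was at 7.44 and 6.74, 1.62-fold higher. Over 13 carbonic anhydrases and pH regulators the median was -0.03, and 7 lay below the table's median on both arrays. Among 8 VEGF ligands and receptors VEGFB alone passed 1.5-fold, at 8.45 and 9.05, 1.52-fold lower. That fold was passed by 3.77% of all genes higher and 3.81% lower.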
